A study of Mus musculus with 63 samples.

Results

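The Mediator kinase module genes were followed through all deposited count tables of the series, as the 7 genes whose gene name was *Cdk8*, *Cdk19*, *Ccnc*, *Med12*, *Med12l*, *Med13* or *Med13l*. They are 7 of the 54752 genes in each of 4 tables, and all 7 were found in every table. The genes were chosen by name for their place in a known complex, with earlier results of these data already known. Of the 7, 6 passed edgeR's filter on low counts in every comparison, and *Med12l* passed it only in intestinal epithelial cells.

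Mediator is a large protein complex that carries signals from enhancer-bound transcription factors to RNA polymerase II. Its kinase module binds it reversibly and consists of a cyclin-dependent kinase (CDK8 or its paralog CDK19), cyclin C, MED12, which activates the kinase, and MED13, which joins the module to the rest of Mediator. In vertebrates the kinase, MED12 and MED13 each have a paralog (CDK19, MED12L and MED13L), and a module takes up one of each pair. In the intestinal epithelium, which renews itself continuously from stem cells at the crypt base, the module has been studied for its part in Wnt signaling and colorectal cancer.

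Poly-A RNA of small intestinal organoids and of small intestinal epithelial cells (IECs) of C57BL/6 mice was compared in 57 libraries, as 19 groups of 3. Organoids are epithelial cultures grown from crypts in Matrigel with Noggin, R-spondin and EGF. Of the organoid lines, 5 received 100 nM 4-hydroxytamoxifen (4-OHT) for 24 h and were collected at day 7. Their genotypes were VillinCreERT2, unmodified C57BL/6, VillinCreERT2 with *Cdk8* fl/fl (Cdk8KO), *Cdk8* fl/fl with *Cdk19* ko/ko and no Cre (Cdk19KO), and VillinCreERT2 with *Cdk8* fl/fl and *Cdk19* ko/ko (DKO). IECs came from VillinCreERT2 and DKO mice 14 days after the last of 5 daily injections of 80 mg/kg tamoxifen. A second organoid line of the DKO genotype received 0.001% ethanol (EtOH) or 4-OHT and was collected at days 3, 5, 7 and 10, and also at day 10 in Wnt3-conditioned medium (Wnt3-CM). The last line carried *Cdk19* ko/D173A, an allele in which the CDK19 kinase is made inactive, with VillinCreERT2 and *Cdk8* fl/fl, and received EtOH or 4-OHT with collection at day 7. *Cdk19* was therefore altered in both arms of every EtOH against 4-OHT comparison, and VillinCreERT2 is active only in intestinal epithelium and only once 4-OHT or tamoxifen is given.

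Each organoid group is a single line, so genotype and line cannot be told apart in the comparisons between lines, and 4-OHT, Cre activity and *Cdk8* deletion cannot be told apart in the comparisons within a line. The labels do not say that the 3 libraries of a group come from separate cultures or mice, so p-values measure the spread between these libraries only. Totals ran from 15485959 to 32909565 counts per library. All 7 epithelial markers (*Epcam*, *Vil1*, *Cdh1*, *Krt8*, *Krt18*, *Krt19*, *Cdx2*) were detected in every group. The summed level of 9 immune markers was at most 1.71 CPM (counts relative to the TMM-scaled library total) in organoids and 1615 to 2770 CPM in IECs. Most of the IEC sum was *Cd74*, at 998 to 1375 CPM in DKO and 1597 to 2692 CPM in VillinCreERT2 IECs. The leukocyte gene *Ptprc* was at 31.8 to 60.4 CPM in DKO and 17.2 to 34.5 CPM in VillinCreERT2 IECs, so IEC libraries also hold RNA of immune cells. *Xist*, the RNA of the inactive X chromosome, was at 342 to 432 CPM in VillinCreERT2 and 587 to 804 CPM in C57BL/6 organoids and at most 0.458 CPM in the Cdk8KO, Cdk19KO and DKO organoids, which instead expressed the Y-linked *Ddx3y* at 55.9 to 71.1 CPM. Sex therefore differs together with genotype in these lines, which bears on the X-linked *Med12*. Among the IECs, DKO replicate 2 expressed *Ddx3y* (30.2 CPM) and the other 5 libraries did not exceed 0.103 CPM.

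On GRCm38 (mm10) and GENCODE vM21, *Cdk8* lies at chr5:146231230-146302874 on the plus strand and *Cdk19* at chr10:40339564-40483818 on the plus strand. *Ccnc*, which encodes cyclin C, lies at chr4:21727701-21759922 (plus), *Med12* at chrX:101274030-101297465 (plus) and *Med12l* at chr3:59005825-59318682 (plus). *Med13* lies at chr11:86267033-86357602 (minus) and *Med13l* at chr5:118560679-118765438 (plus). All 7 are annotated as protein-coding. Reads were counted over the whole gene, including any from an allele that has lost an exon, and which exons the floxed and null alleles remove is not given in the sources used here. The counts of *Cdk8* and *Cdk19* therefore do not check the deletions, and groups are called by their labels.

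The 2 kinases are close paralogs, and reads of one could in principle be counted for the other. Their coding sequences, of 1395 and 1506 bases, were identical at 78.5% of 1385 aligned bases, and the longest identical run was 23 bases, well short of a 100 bp read. No window of 100 bases in *Cdk8*, *Cdk19*, *Ccnc*, *Med12l*, *Med13* or *Med13l* transcripts also occurred in a transcript of another gene, while 7.78% of the *Med12* windows were shared with *Gm21986*, an overlapping transcript on the same strand. The 63 bases around the D173 codon of each kinase are shown because this codon is the one changed in the D173A allele. The codon, in capitals, is GAC (aspartate, of the kinase's DMG motif) in both genes and lies in exon 6 of 13, at chr5:146286110-146286112 in *Cdk8* and chr10:40466640-40466642 in *Cdk19*.
Cdk8: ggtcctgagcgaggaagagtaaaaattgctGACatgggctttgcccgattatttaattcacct
Cdk19: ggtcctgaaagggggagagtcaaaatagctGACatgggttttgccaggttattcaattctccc
The stretches differed at 12 of 63 bases, so that a read over this site can be assigned to one gene.

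The RT-PCR primers for *Cdk8* and *Cdk19* lie at the 5′ end of both genes and are shown for their position relative to the whole-gene counts. Each matched its own gene without a mismatch.
Cdk8 forward: ggtcgaggacctgtttgaatac
Cdk8 reverse: gcgtagtctttatcgtccttcc
Cdk19 forward: gatttcaaggcgaagctggcg
Cdk19 reverse: gccttgtagacatgcccgtag
The *Cdk8* pair spans 105 bases of exons 1 and 2, starting at chr5:146231737-146231758, and the *Cdk19* pair spans 104 bases of exon 1, from chr10:40349603-40349623 to chr10:40349686-40349706. Against the other kinase the *Cdk8* primers had at least 3 and 7 mismatches and the *Cdk19* primers at least 7 and 2.

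Exons of 6 of the 7 genes overlap those of another gene. The overlap was 268 bases with *Cdk19os* for *Cdk19*, 171 bases with *Tstd3* for *Ccnc*, 450 bases with *Brip1os* for *Med13* and 55 bases with *Gm43785* for *Med13l*, all on the opposite strand, and 279 bases with *Gm21986* for *Med12*. *Med12l* overlapped *Igsf10* by 1948 bases on the opposite strand, as well as *Gm43570* (248 bases) and *P2ry12* (9 bases). Whether the counting used strand is not given in the sources used here, so reads of these opposite-strand genes cannot be separated with certainty from those of the members, and the counts of *Med12l*, the gene with the longest overlap, are the least certain.

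Levels between genes were compared per kb of length (CPM per 1000 bases). The tables were scaled separately, so levels are comparable within a table. *Med12l* had the lowest level per kb in all 19 groups, with group means of 0 to 0.117 CPM per kb of merged exons, and *Med12* was above it in every library of all 19 groups. *Med13* was highest in 17 of 19 groups (group means of 6.54 to 11.9 CPM per kb) and above *Med13l* (1.92 to 4.20) in 19. Neighbours in this order often did not differ beyond their spread. In VillinCreERT2 organoids the order was *Med13*, *Cdk8*, *Ccnc*, *Med12*, *Cdk19*, *Med13l* and *Med12l*, and the libraries of *Ccnc*, *Med12* and *Cdk19* overlapped.

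The order of *Cdk8* and *Cdk19* per kb depended on the length used. With the merged exons of all annotated transcripts, 9832 bases for *Cdk8* and 5846 for *Cdk19*, *Cdk8* was above *Cdk19* in 8 groups and below it in 10, and the libraries overlapped in 1. With the transcript that has the longest coding sequence, 2973 bases for *Cdk8* and 5807 for *Cdk19*, *Cdk8* was above *Cdk19* in all 19 groups and was the highest of the 7 genes in each. By this length *Cdk8* group means ran from 12.4 to 27.1 CPM per kb and those of *Cdk19* from 2.86 to 10.1. The counts do not say which transcripts were expressed, and the comparison of this length was added after the data were seen. *Med13* stayed above *Med13l* in 14 groups by transcript length, and the libraries overlapped in 5.

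A member was called changed in a comparison where its edgeR quasi-likelihood p, adjusted over all genes tested by the method of Benjamini and Hochberg, was under 0.05. Between the organoid lines, 1 of 6 tested members was lower in Cdk8KO than in VillinCreERT2 organoids, against 15.7% of all genes higher and 14.6% lower. Cdk19KO differed from C57BL/6 organoids in 2 members that were higher and 1 that was lower (all genes 7.66% and 7.8%). DKO organoids had 2 lower members against VillinCreERT2 (all genes 25.8% higher, 27.1% lower), 1 higher member against Cdk19KO (17.5% and 17%) and 2 lower members against Cdk8KO (26.6% and 28.1%). The unmodified C57BL/6 line had 3 lower members against VillinCreERT2 (31.2% and 30.1%). In IECs, 0 of 7 members passed between DKO and VillinCreERT2 by edgeR (all genes 0.659% and 0.883%), and 1 had an unadjusted p under 0.05. By DESeq2, which called 1192 of 15150 genes, 0 members passed. By limma-voom, which called 229 of 15182, 0 passed.

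Within the DKO line, 4-OHT against EtOH changed 1 member upward at day 3 (all genes 15.5% higher, 18.8% lower), 3 upward and 1 downward at day 5 (18.4% and 19.9%), 2 upward and 1 downward at day 7 (22.7% and 22.5%) and 2 downward at day 10 (23.1% and 21.2%). Between EtOH organoids of day 10 and day 3, 3 members were higher and 2 lower (33.5% and 33.7%). The effect of 4-OHT differed between day 10 and day 3 for 2 members, both with the lower value at day 10 (23.7% of all genes higher, 21.4% lower). In Wnt3-CM, 1 member rose and 2 fell (24.3% and 23.9%), and the effect of 4-OHT differed from that in standard medium for 1 member in each direction (14.1% and 14.9%). In the D173A line 0 of 6 members passed by edgeR (14.2% and 13.7%), 0 by DESeq2 and 0 by limma-voom, with 1 at an unadjusted p under 0.05 and 1, *Cdk19*, past the test with the replicate block, and 1 member differed in its effect from the DKO line at day 7, in the lower direction (9.73% and 10.4%). The comparisons share libraries (Cdk8KO, DKO and C57BL/6 were all set against the same VillinCreERT2 organoids). Over all 17, *Med13l* was called in 10 (1 higher, 9 lower), *Cdk19* and *Med13* in 7 each, *Cdk8* and *Med12* in 5 each and *Ccnc* in 1. The share of all genes called in one direction ran from 0.659% in IECs to 33.7% between EtOH day 10 and day 3. No such tally was made over all genes, so these counts do not set a member apart from other genes.

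**Figure D1:**
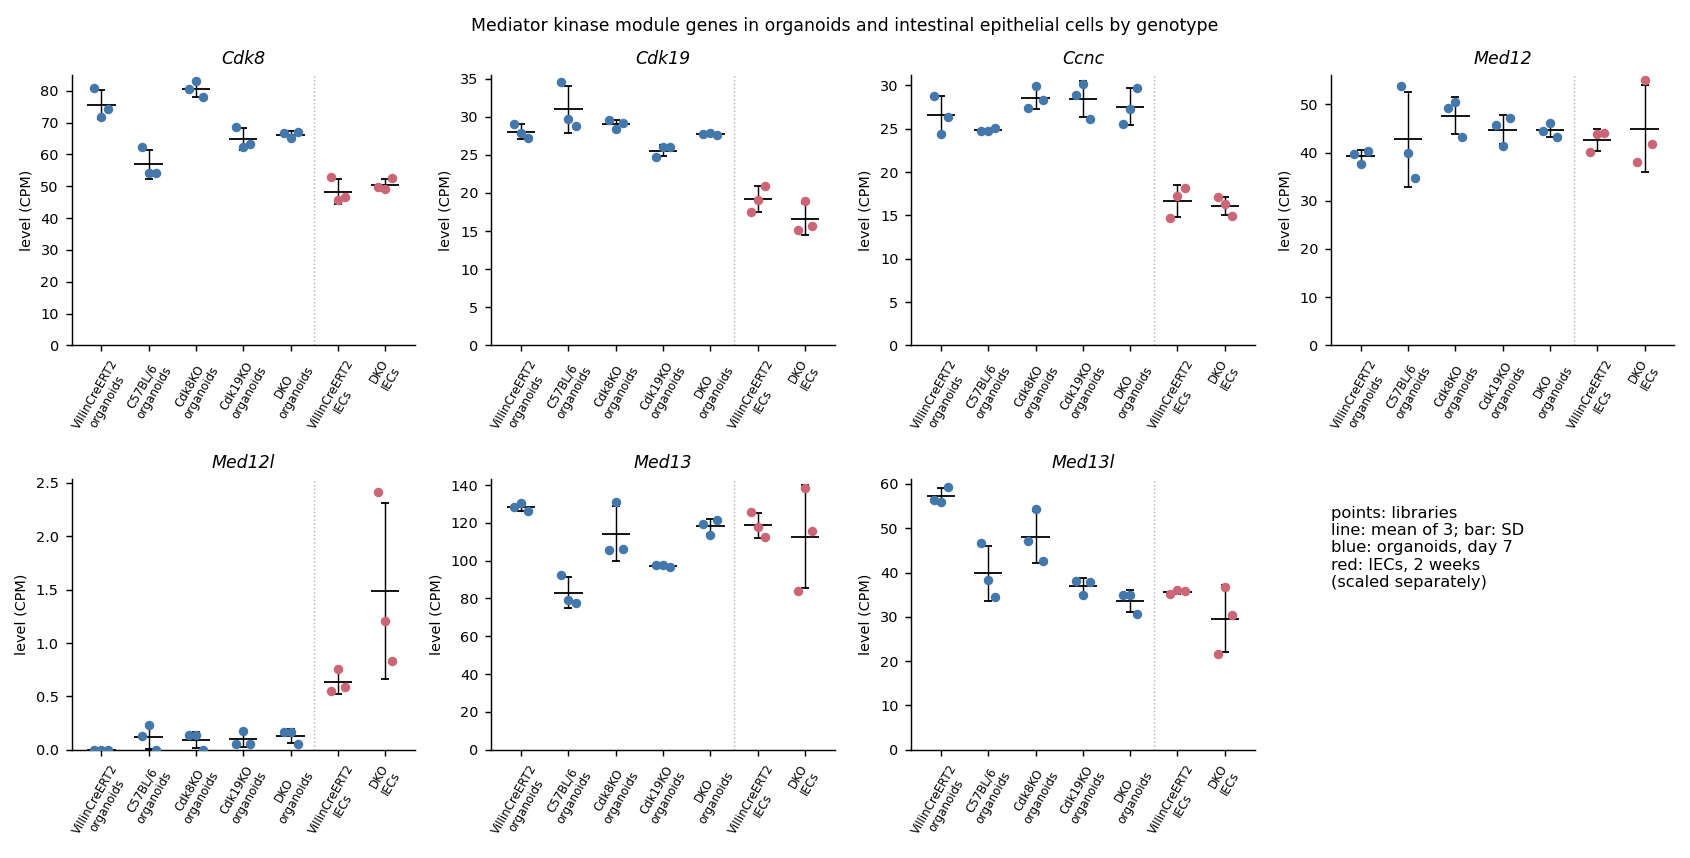
Levels (CPM, y axis, from 0) of 6 members and *Med12l* by genotype, with 5 organoid groups at day 7 left of the dotted line and 2 IEC groups right of it. Points are libraries and bars the mean ± SD (n = 3). *Med13l* libraries of DKO organoids (30.7 to 34.9) sit below those of VillinCreERT2 organoids (56.0 to 59.3), while *Cdk8* libraries labelled Cdk8KO (78.0 to 83.1) overlap those of VillinCreERT2 (71.9 to 80.8).

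*Cdk8*, the kinase that the floxed allele targets, showed no fall in its whole-gene level in the Cdk8KO organoids. The 3 Cdk8KO libraries stood at 80.7, 83.1 and 78.0 CPM and the VillinCreERT2 libraries at 80.8, 71.9 and 74.2 CPM. The groups overlapped, and the log2 fold change was 0.09 ± 0.06 (SE, n = 3 per group), with a 95% interval of −0.04 to 0.22 and an adjusted p of 0.283. DKO organoids, at 66.6, 65.1 and 67.2 CPM, were lower than VillinCreERT2 (log2 fold change −0.19, adjusted p = 0.0131) and Cdk8KO organoids (−0.28, adjusted p = 0.000449). Against the average of the VillinCreERT2 and C57BL/6 lines, DKO stood at 0.02 (adjusted p = 0.840) and Cdk8KO at 0.30 (adjusted p = 0.000111), so the direction for DKO and the call for Cdk8KO depend on the control line. The difference of DKO from VillinCreERT2 was also lost without VillinCreERT2 replicate 1 (−0.14, adjusted p = 0.0977) and with upper quartile normalization (adjusted p = 0.0584). Against Cdk19KO organoids, which have no Cre and stood at 68.8, 62.3 and 63.4 CPM, the DKO line did not pass the test (0.03, 95% interval −0.10 to 0.16, adjusted p = 0.735). The *Cdk8* libraries of these lines overlapped, and both lines carry *Cdk19* ko/ko.

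Among the 6 comparisons of organoid lines, *Cdk8* differed most between the control lines. C57BL/6 organoids, at 62.3, 54.0 and 54.3 CPM, lay below all 3 VillinCreERT2 libraries by 0.41 on the log2 scale (−0.41 ± 0.06, adjusted p = 4.16e-06). Cdk19KO organoids were above C57BL/6 by 0.19 (adjusted p = 0.0475), but this call was lost without C57BL/6 replicate 2 or 3 or Cdk19KO replicate 1 or 3 (adjusted p = 0.0762 to 0.210), after dropping genes with under 10 counts in any library (0.0504), with upper quartile normalization (0.0706) and with only the groups compared (0.104). In IECs the DKO libraries stood at 49.8, 49.1 and 52.5 CPM and the VillinCreERT2 libraries at 52.8, 45.7 and 46.5 CPM, which overlapped (0.06, 95% interval −0.16 to 0.28, adjusted p = 0.728).

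Within a line, *Cdk8* was not called between 4-OHT and EtOH in any of the 6 comparisons. In the DKO line the EtOH libraries were at 38.6, 39.9 and 39.3 CPM at day 3 and the 4-OHT libraries at 37.1, 34.2 and 39.3 CPM, with a log2 fold change of −0.09 (95% interval −0.24 to 0.05). The fold changes at days 5, 7 and 10 were 0.04, −0.12 and 0.00 with adjusted p of 0.671, 0.159 and 0.993. At day 7 the 3 libraries with 4-OHT (45.6, 42.8 and 47.2 CPM) lay below the 3 with EtOH (49.6, 47.7 and 50.2 CPM) without passing the test. In Wnt3-CM the value was 0.14 (95% interval −0.03 to 0.30, adjusted p = 0.162), which passed without 4-OHT replicate 1 (0.21, adjusted p = 0.0223). *Cdk8* in the D173A line differed by 0.01 (95% interval −0.14 to 0.16, adjusted p = 0.934), at 70.6, 66.1 and 63.3 CPM with EtOH and 69.4, 68.1 and 63.7 CPM with 4-OHT.

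With time in culture, *Cdk8* rose. In EtOH organoids of the DKO line it went from 38.6 to 39.9 CPM at day 3 to 53.9 to 57.1 CPM at day 10, and the groups did not overlap (log2 fold change 0.50 ± 0.07, adjusted p = 2.93e-07). The group means at days 5 and 7, of 43.7 and 49.2 CPM, lay between them, with libraries at 38.5 to 46.5 and 47.7 to 50.2 CPM. The effect of 4-OHT did not differ between days 10 and 3 (0.09, 95% interval −0.11 to 0.29, adjusted p = 0.481). In the same EtOH libraries the summed level of 5 Paneth cell markers, none of them at 0, went from 3534 to 4137 CPM at day 3 to 7978 to 8154 CPM at day 10, and that of 8 mesenchymal markers from 10.9 to 13.1 CPM to 4.26 to 4.75 CPM. Their part in the day 3 to day 10 differences of *Cdk8*, *Ccnc*, *Med12*, *Cdk19* and *Med13l* was not tested.

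*Cdk19*, the paralog kinase, was expressed at the whole-gene level in every group labelled *Cdk19* ko/ko. Cdk19KO organoids had 24.7, 26.0 and 26.0 CPM and C57BL/6 organoids 34.5, 29.7 and 28.7 CPM. The groups did not overlap, and *Cdk19* was lower in Cdk19KO by 0.28 on the log2 scale (−0.28 ± 0.07, adjusted p = 0.00994). The call rested on 2 libraries, since it was lost without C57BL/6 replicate 1 (−0.19, adjusted p = 0.0612) or Cdk19KO replicate 1 (−0.24, adjusted p = 0.0685). DKO organoids, at 27.8, 27.8 and 27.6 CPM, did not pass against VillinCreERT2 organoids at 29.1, 27.8 and 27.2 CPM (−0.02, 95% interval −0.16 to 0.13, adjusted p = 0.862), nor did the Cdk8KO organoids, whose *Cdk19* was not altered (0.05, 95% interval −0.09 to 0.19, adjusted p = 0.639). C57BL/6 and VillinCreERT2 organoids did not pass either (0.14, adjusted p = 0.0883), except without C57BL/6 replicate 3 (0.19, adjusted p = 0.0333) and with upper quartile normalization (0.23, adjusted p = 0.00833). In IECs the DKO libraries were at 15.1, 19.0 and 15.7 CPM and the VillinCreERT2 libraries at 17.5, 19.1 and 20.97 CPM (−0.21, 95% interval −0.52 to 0.10, adjusted p = 0.407).

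In the DKO line *Cdk19* counts rose after 4-OHT at days 3, 5 and 7. At day 3 the EtOH libraries held 47.0, 46.4 and 44.0 CPM and the 4-OHT libraries 59.99, 56.9 and 58.3 CPM, a log2 fold change of 0.35 ± 0.06 (adjusted p = 8.01e-05). At day 5 they held 38.8, 39.8 and 35.6 against 48.8, 48.5 and 46.0 CPM (0.33 ± 0.07, adjusted p = 0.000260), and at day 7 39.0, 39.6 and 39.7 against 45.7, 48.7 and 50.3 CPM (0.29 ± 0.07, adjusted p = 0.000570). Every 4-OHT library lay above every EtOH library on these 3 days. At day 10 the groups overlapped at 42.0, 39.7 and 39.6 against 40.5, 35.3 and 39.7 CPM (−0.07, 95% interval −0.21 to 0.06, adjusted p = 0.414). The effect was lower at day 10 than at day 3 by 0.42 on the log2 scale (−0.42 ± 0.09, adjusted p = 0.000419). The allele in this line is labelled ko/ko, and which transcripts gave these counts, those of *Cdk19os* included, was not tested. At day 3 the sum of 8 mesenchymal markers, 3 of them at 0 in each group, was 10.9 to 13.1 CPM with EtOH and 2.44 to 4.44 CPM with 4-OHT. It overlapped at days 5 and 7. The sum of 5 Paneth cell markers overlapped at day 3. It was 4683 to 5887 against 2451 to 2774 CPM at day 5 and 4743 to 5775 against 1765 to 1965 CPM at day 7. Their part in the *Cdk19* result was not tested.

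*Cdk19* was not called in Wnt3-CM or in the D173A line. In Wnt3-CM at day 10, *Cdk19* was at 40.3, 38.9 and 38.1 CPM with EtOH and 38.0, 41.2 and 35.6 CPM with 4-OHT (−0.03, 95% interval −0.19 to 0.13, adjusted p = 0.760). The effect did not differ from that in standard medium at the same day (0.04, 95% interval −0.18 to 0.25, adjusted p = 0.826). In the D173A line, for which the table's columns name no genotype, so that they were assigned because every other group was accounted for, *Cdk19* was at 30.3, 28.4 and 29.6 CPM with EtOH and 27.3, 24.7 and 24.3 CPM with 4-OHT. These groups did not overlap, but the difference did not pass the test (−0.21, 95% interval −0.39 to −0.03, adjusted p = 0.0787). It passed without 4-OHT replicate 1 (−0.26, adjusted p = 0.0319), with upper quartile normalization (−0.26, adjusted p = 0.0361) and with the column number as a replicate block (−0.21, adjusted p = 0.0368). The effect in the D173A line was lower than that in the DKO line at day 7 by 0.50 on the log2 scale (−0.50 ± 0.10, adjusted p = 0.00284), in a joint fit of 12 libraries from 2 tables. In EtOH organoids of the DKO line *Cdk19* fell by 0.18 from day 3 to day 10 (−0.18, adjusted p = 0.0175), and this call was lost without day 10 EtOH replicate 2 or 3 (adjusted p = 0.0649 and 0.0654) and with no filter on low counts (0.132).

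**Figure D2:**
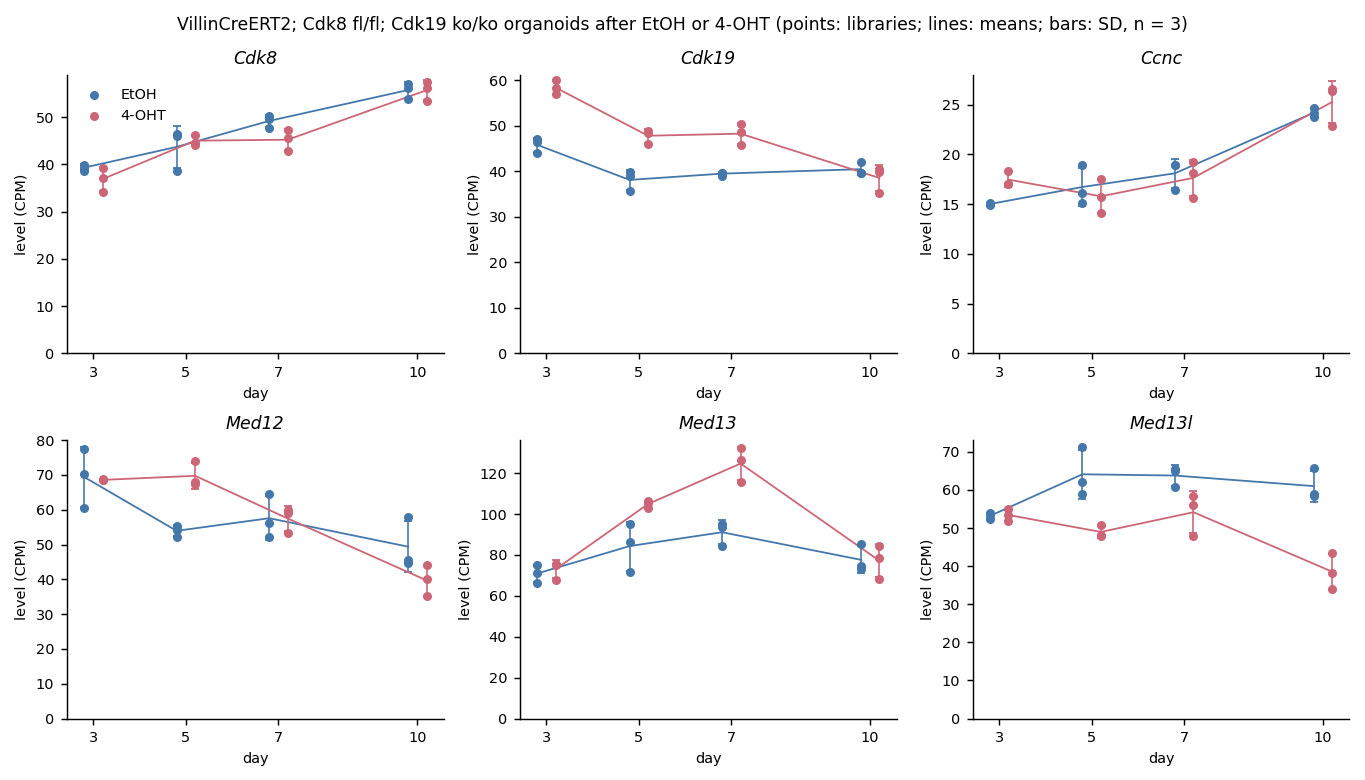
Levels (CPM, y axis, from 0) of 6 members against day (x axis) in the DKO line after EtOH (blue) or 4-OHT (red). Points are libraries, lines join group means and bars show the SD (n = 3). *Cdk19* with 4-OHT lies above EtOH at days 3, 5 and 7 and overlaps it at day 10, *Med13* reaches 116 to 132 CPM with 4-OHT at day 7, and *Med13l* with 4-OHT is at 34.0 to 43.4 CPM at day 10.

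*Ccnc*, the cyclin that both kinases require, was called least often of the 6 members tested throughout. Its 1 call in 17 comparisons was the EtOH organoids of day 10 (24.1, 24.7 and 23.7 CPM) against day 3 (15.1, 14.9 and 15.0 CPM), with a log2 fold change of 0.69 ± 0.10 (adjusted p = 5.79e-07). After 4-OHT at day 3 the libraries stood at 17.0, 18.3 and 17.1 CPM, above all 3 with EtOH, without passing the test (0.22, 95% interval 0.01 to 0.43, adjusted p = 0.0964). With only the day 3 libraries in the fit this difference passed (0.25, adjusted p = 0.0240). The organoid lines ranged from a mean of 24.8 ± 0.186 CPM (SD, n = 3) in C57BL/6 to 28.5 ± 1.31 CPM in Cdk8KO organoids, and no pair of lines compared passed. In IECs *Ccnc* was at 17.1, 16.3 and 15.0 CPM in DKO and 14.6, 17.2 and 18.2 CPM in VillinCreERT2 mice, which overlapped (−0.05, 95% interval −0.34 to 0.24, adjusted p = 0.840). The D173A line had 17.97, 18.5 and 19.3 CPM with EtOH and 20.3, 20.0 and 20.6 CPM with 4-OHT, without overlap, and did not pass (0.13, 95% interval −0.05 to 0.30, adjusted p = 0.270).

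*Med12*, the kinase-activating subunit encoded on the X chromosome, was not called between any of the organoid lines. The Cdk8KO organoids (49.3, 50.4 and 43.2 CPM) lay above VillinCreERT2 organoids (39.6, 37.7 and 40.3 CPM) by 0.28 on the log2 scale (95% interval 0.06 to 0.51), with an adjusted p of 0.0563. This value passed without Cdk8KO replicate 3 (0.35, adjusted p = 0.0318), with no filter on low counts (0.00104), upper quartile normalization (0.0402) and only the groups compared (0.00406). It also passed with a replicate block (0.0378), although the numbers were not taken to pair libraries in this table. The Cdk8KO line expressed *Ddx3y* and the VillinCreERT2 line *Xist*, so that sex and genotype cannot be told apart here. Cdk19KO against C57BL/6 organoids (0.07, adjusted p = 0.742) passed without C57BL/6 replicate 1 (0.26, adjusted p = 0.0172), C57BL/6 against VillinCreERT2 (0.12, adjusted p = 0.357) passed without C57BL/6 replicate 3 (0.25, adjusted p = 0.0259), and DKO against VillinCreERT2 (0.18, adjusted p = 0.168) passed with only the groups compared (0.20, adjusted p = 0.0123). In IECs, DKO libraries stood at 38.0, 55.1 and 41.7 CPM and VillinCreERT2 libraries at 40.1, 43.9 and 44.1 CPM (0.07, 95% interval −0.27 to 0.42, adjusted p = 0.804), and the highest of them was the *Ddx3y*-expressing DKO replicate 2. Without it the value was −0.10 (adjusted p = 0.472).

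Within the DKO line the direction of *Med12* after 4-OHT varied with the day. It rose at day 5, from 54.3, 55.3 and 52.2 CPM to 67.9, 74.0 and 67.4 CPM (log2 fold change 0.37 ± 0.10, adjusted p = 0.00294), with no overlap of the groups. At day 10 it fell, from 57.9, 44.8 and 45.6 CPM to 44.1, 35.1 and 40.0 CPM (−0.32 ± 0.10, adjusted p = 0.00974), but this call was lost without EtOH replicate 1 (−0.19, adjusted p = 0.127) or 4-OHT replicate 2 (−0.24, adjusted p = 0.0785). At days 3 and 7 the groups overlapped (−0.02 and 0.00, adjusted p of 0.911 and 0.988). The difference between the effects of day 10 and day 3 was −0.30 (95% interval −0.58 to −0.02, adjusted p = 0.0755). It passed without day 3 EtOH replicate 2, day 10 EtOH replicate 2 or 3 or day 10 4-OHT replicate 1 (adjusted p = 0.0235 to 0.0485), with no filter on low counts (0.0280) and with upper quartile normalization (0.0385). With EtOH alone, *Med12* fell by 0.49 from day 3 to day 10 (−0.49 ± 0.10, adjusted p = 5.79e-05).

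In Wnt3-CM *Med12* rose after 4-OHT. The EtOH libraries were at 31.0, 26.0 and 26.1 CPM and the 4-OHT libraries at 44.4, 48.0 and 46.5 CPM, a log2 fold change of 0.74 ± 0.08 (adjusted p = 1.88e-07). All 3 libraries with 4-OHT lay above all 3 with EtOH. The effect exceeded that in standard medium at day 10, where *Med12* had fallen, by 1.05 ± 0.15 on the log2 scale (adjusted p = 2.87e-05), the largest of the members' differences in effect. In the same Wnt3-CM libraries the sum of 5 Paneth cell markers was 6722 to 7434 CPM with EtOH and 1845 to 2261 CPM with 4-OHT. That of 7 epithelial markers was 12331 to 12822 against 9481 to 10244 CPM. Their part in the *Med12* and *Med13* results in this medium was not tested. *Med12* in the D173A line was at 55.4, 54.2 and 54.1 CPM with EtOH and 58.5, 55.9 and 48.8 CPM with 4-OHT, which overlapped (0.00, 95% interval −0.17 to 0.17, adjusted p = 0.979). The lowest of these was 4-OHT replicate 3, the library with the most Y-linked reads in this line, at 17 counts over 4 genes.

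**Figure D3:**
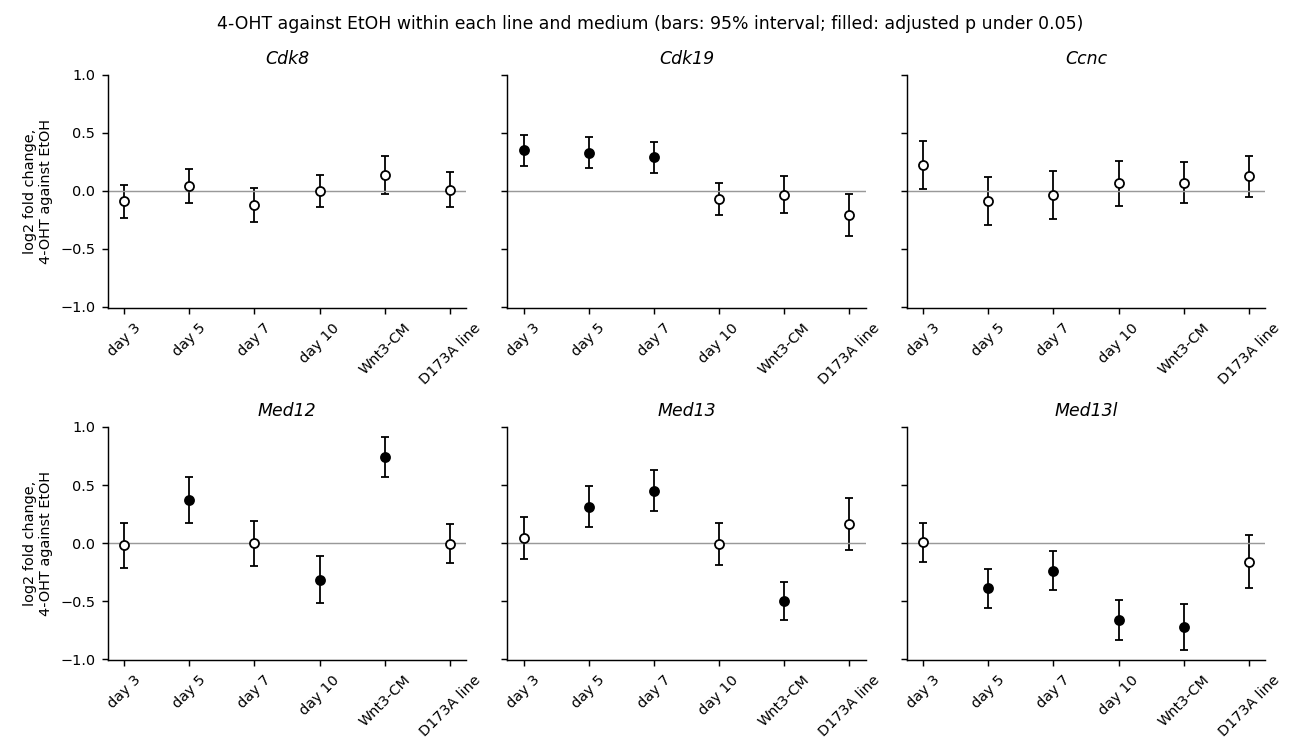
Log2 fold change of 4-OHT against EtOH (y axis) for 6 members in 6 comparisons (x axis: DKO line at days 3, 5, 7 and 10, DKO line in Wnt3-CM at day 10, and the D173A line at day 7). Bars are 95% intervals and filled points have an adjusted p under 0.05. *Cdk8* and *Ccnc* have no filled point, *Med13l* is below 0 with a filled point in 4 comparisons, and *Med12* lies at −0.32 at day 10 and at 0.74 in Wnt3-CM.

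*Med12l*, the paralog of *Med12*, was at or near 0 in organoids. Of 51 organoid libraries 30 had 0 counts, and outside the D173A line no organoid library had more than 4. VillinCreERT2 organoids had 0 counts in all 3 libraries, which allows up to 0.0475 CPM (3 counts over the group), and the other 4 lines of that table had summed counts of 5 to 7. Without the filter on low counts, DKO and C57BL/6 organoids passed against the 0 of VillinCreERT2 (adjusted p = 0.0200 and 0.0251), on 7 and 6 counts. In the time course only 4-OHT groups had any counts, with 2 at day 3, 3 at day 5 and 3 at day 7, against 0 in each EtOH group and 0 with 4-OHT at day 10. These sums are at or under 3 counts, so no fold is given, and without the filter on low counts none of these 3 days passed (adjusted p = 0.289 to 0.497).

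*Med12l* in the D173A line had 0, 2 and 1 counts with EtOH and 4, 14 and 12 counts with 4-OHT, the highest of any organoid group. The summed ratio was 9.93, with an exact 95% interval of 3.09 to 50.8 that covers counting error only. The gene did not pass the filter, and without the filter its log2 fold change was 3.26 (adjusted p = 0.000850), a fitted value that depends on the prior count. With single libraries left out it passed the filter in 4 of the fits. It did so only through the 4-OHT libraries, where it is high. The p-values of those fits therefore depend on the difference itself and are not given. The 4 Y-linked genes *Ddx3y*, *Eif2s3y*, *Kdm5d* and *Uty* summed to 0, 0 and 1 counts in the EtOH libraries and to 0, 3 and 17 counts in the 4-OHT libraries of this line, all of which expressed *Xist* (375 to 652 CPM). Their part in the *Med12l* result was not tested.

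In IECs *Med12l* was tested and did not pass. DKO libraries had 47, 24 and 17 counts and VillinCreERT2 libraries 10, 14 and 11, so that the groups did not overlap. The log2 fold change was 1.22 ± 0.46 (95% interval 0.13 to 2.32, adjusted p = 0.215), and the summed ratio of 88 to 35 counts was 2.52 (exact interval 1.69 to 3.84, counting error only). It was 0.69 without DKO replicate 1, the library with 47 counts (adjusted p = 0.484). Markers of other cells differed between the same groups. The immunoglobulin gene *Igkc* was at 299 to 527 CPM in DKO and 10.1 to 117 CPM in VillinCreERT2 IECs, and the leukocyte gene *Ptprc* at 31.8 to 60.4 against 17.2 to 34.5 CPM. Of the 9 immune markers, 8 had a higher median in DKO, and *Cd74*, the most abundant of them, was lower at 998 to 1375 against 1597 to 2692 CPM, so that the sum of all 9 was at 1615 to 2369 against 1665 to 2770 CPM. The sum of 6 neural and endothelial markers was 5.11 to 11.2 against 1.54 to 3.32 CPM, that of 8 mesenchymal markers 459 to 974 against 13.8 to 887 CPM, and none of these markers was at 0 in every library of either group. Their part in the *Med12l* result was not tested.

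*Med13*, which links the module to Mediator, differed most between the control lines. C57BL/6 organoids had 92.7, 79.4 and 77.3 CPM and VillinCreERT2 organoids 128, 131 and 126 CPM, a log2 fold change of −0.63 ± 0.07 (adjusted p = 3.74e-08). DKO organoids (119, 114 and 121 CPM) were above Cdk19KO organoids (97.9, 97.4 and 96.7 CPM) by 0.28 ± 0.07 (adjusted p = 0.00327) and did not pass against VillinCreERT2 (−0.12, 95% interval −0.27 to 0.02, adjusted p = 0.147). Against the average of the VillinCreERT2 and C57BL/6 lines the latter value was 0.19 (adjusted p = 0.0117), so its direction depends on the control line. Cdk19KO against C57BL/6 organoids (0.23, adjusted p = 0.0316) was lost under 5 of the 6 single-library omissions, with an adjusted p of 0.0687 to 0.141, and held only without C57BL/6 replicate 1. In Cdk8KO organoids (106, 131 and 106 CPM) the value of −0.17 (adjusted p = 0.0678) passed without replicate 2, the highest library (−0.28, adjusted p = 0.00293), and with no filter on low counts (0.0446). In IECs *Med13* spread from 83.9 to 138 CPM in DKO and from 113 to 126 CPM in VillinCreERT2 libraries, which overlapped (−0.08, 95% interval −0.49 to 0.34, adjusted p = 0.836).

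After 4-OHT in the DKO line *Med13* rose at days 5 and 7. At day 5 the EtOH libraries were at 71.5, 95.2 and 86.2 CPM and the 4-OHT libraries at 103, 105 and 106 CPM (0.31 ± 0.09, adjusted p = 0.00494). Without EtOH replicate 1, the lowest library, the value was 0.19 and did not pass (adjusted p = 0.0840). At day 7 *Med13* went from 95.1, 93.7 and 84.5 CPM to 126, 132 and 116 CPM (0.45 ± 0.09, adjusted p = 7.96e-05), and this call held without any one library. At days 3 and 10 the groups overlapped, with values of 0.04 (95% interval −0.14 to 0.22) and −0.01 (−0.19 to 0.17). Between day 3 and day 10 in EtOH it did not pass either (0.13, 95% interval −0.05 to 0.31, adjusted p = 0.188).

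In Wnt3-CM *Med13* fell, from 122, 109 and 111 CPM to 72.4, 91.0 and 78.9 CPM (−0.49 ± 0.08, adjusted p = 3.02e-05), with no overlap. The effect was lower than in standard medium at day 10 by 0.49 ± 0.13 on the log2 scale (adjusted p = 0.00774). In this medium *Med12* and *Med13*, neighbours within the module, thus moved in opposite directions, and each call held without any one library. *Med13* in the D173A line was at 96.6, 104 and 94.1 CPM with EtOH and 124, 113 and 92.7 CPM with 4-OHT (0.17, 95% interval −0.06 to 0.39, adjusted p = 0.250), which passed without 4-OHT replicate 3 (0.27, adjusted p = 0.0229). The difference of its effect from that of the DKO line at day 7 was −0.29 (95% interval −0.57 to −0.01, adjusted p = 0.134), which passed without D173A 4-OHT replicate 1 (−0.38, adjusted p = 0.0419).

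*Med13l*, the paralog of *Med13*, was the member called most often, and 9 of its 10 calls were lower. DKO organoids had 34.9, 34.9 and 30.7 CPM and VillinCreERT2 organoids 56.3, 56.0 and 59.3 CPM, a log2 fold change of −0.77 ± 0.09 (adjusted p = 3.41e-07). DKO organoids were also below Cdk8KO organoids at 47.2, 54.3 and 42.6 CPM (−0.52 ± 0.09, adjusted p = 5.70e-05). Against Cdk19KO organoids at 38.0, 35.0 and 37.9 CPM they did not pass (−0.14, 95% interval −0.34 to 0.06, adjusted p = 0.275), although the groups did not overlap. The control lines differed as well, with C57BL/6 organoids at 46.6, 38.4 and 34.5 CPM below VillinCreERT2 (−0.52 ± 0.09, adjusted p = 3.39e-05), so DKO libraries overlapped those of C57BL/6. Cdk19KO and C57BL/6 organoids overlapped as well (−0.11, 95% interval −0.30 to 0.09, adjusted p = 0.511).

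Cdk8KO organoids were below VillinCreERT2 organoids in *Med13l* by 0.25 (−0.25 ± 0.09, adjusted p = 0.0345). That call was lost without any of Cdk8KO replicates 1 and 3 and VillinCreERT2 replicates 1, 2 and 3 (adjusted p = 0.0628 to 0.183), and the value was 0.01 (adjusted p = 0.931) against the average of the VillinCreERT2 and C57BL/6 lines. In IECs the DKO libraries were at 21.7, 36.8 and 30.3 CPM and the VillinCreERT2 libraries at 35.1, 36.1 and 35.8 CPM. DKO replicate 2 reached above the VillinCreERT2 libraries, and the difference did not pass (−0.27, 95% interval −0.70 to 0.16, adjusted p = 0.440).

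Within the DKO line *Med13l* fell after 4-OHT at days 5, 7 and 10. At day 3 it was at 53.3, 52.3 and 53.9 CPM with EtOH and 55.0, 53.3 and 51.9 CPM with 4-OHT (0.01, 95% interval −0.16 to 0.17, adjusted p = 0.961). At day 5 it went from 62.1, 71.3 and 58.9 CPM to 48.1, 50.8 and 48.0 CPM (−0.39 ± 0.08, adjusted p = 0.000426). At day 7 it went from 60.7, 65.6 and 65.0 CPM to 56.1, 58.4 and 47.9 CPM (−0.24 ± 0.08, adjusted p = 0.0184), a call that was lost without EtOH replicate 3 (adjusted p = 0.0553) or 4-OHT replicate 3 (−0.17, adjusted p = 0.113). In EtOH replicate 2 of day 7 the sum of 8 mesenchymal markers was 47.0 CPM, against 5.14 to 9.16 CPM in the other 5 libraries of that day, and without it *Med13l* stood at −0.23 (adjusted p = 0.0474), *Med13* at 0.46 (0.000472) and *Cdk19* at 0.28 (0.00347). At day 10 it went from 65.7, 58.4 and 59.0 CPM to 43.4, 34.0 and 38.1 CPM (−0.66 ± 0.08, adjusted p = 1.52e-07). On these 3 days every 4-OHT library lay below every EtOH library. The effect at day 10 was below that at day 3 by 0.67 ± 0.12 (adjusted p = 2.36e-05), whereas the EtOH organoids were higher at day 10 than at day 3 (0.20, adjusted p = 0.0329). The last call was lost after dropping genes with under 10 counts in any library (0.231), with upper quartile normalization (0.204) and without day 10 EtOH replicate 1 or any one of the day 3 EtOH libraries (adjusted p = 0.0724 to 0.153).

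The fall at day 10 was also found in Wnt3-CM, where *Med13l* went from 66.4, 64.7 and 63.5 CPM to 34.0, 46.7 and 37.2 CPM (−0.72 ± 0.09, adjusted p = 4.23e-06). The effect did not differ between the media (−0.06, 95% interval −0.36 to 0.24, adjusted p = 0.790). In the D173A line, at 53.1, 46.2 and 51.3 CPM with EtOH and 50.7, 45.6 and 38.2 CPM with 4-OHT, the groups overlapped and the difference did not pass (−0.16, 95% interval −0.39 to 0.07, adjusted p = 0.278). Its effect did not differ from that of the DKO line at day 7 either (0.07, 95% interval −0.23 to 0.37, adjusted p = 0.783). The summed level of 5 Paneth cell markers (*Lyz1*, *Ang4*, *Mmp7*, *Defa24*, *Itln1*), none of them at 0, was lower in the 4-OHT libraries of days 5, 7 and 10. It was 7978 to 8154 CPM with EtOH and 2081 to 2469 CPM with 4-OHT at day 10, 6722 to 7434 against 1845 to 2261 CPM in Wnt3-CM, 2719 to 2837 CPM in VillinCreERT2 and 787 to 818 CPM in DKO organoids. It was 2380 to 2567 CPM in Cdk8KO, 3747 to 4066 CPM in Cdk19KO and 4697 to 5813 CPM in C57BL/6 organoids. In the D173A line it was 3192 to 3441 CPM with EtOH and 1649 to 1945 CPM with 4-OHT, and in IECs 899 to 1979 CPM in DKO and 3617 to 5914 CPM in VillinCreERT2 mice. In bulk samples fewer cells of a type and less RNA per cell cannot be told apart, and the part of the Paneth cell share in the *Med13l* result was not tested.

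The ratio of 2 members' counts within a library does not depend on how libraries are scaled. The *Med13* count per *Med13l* count was 1.33 ± 0.0685 with EtOH and 1.37 ± 0.118 with 4-OHT at day 3 (SD, n = 3 libraries, also below). It was 1.32 ± 0.157 against 2.14 ± 0.0684 at day 5, 1.43 ± 0.134 against 2.31 ± 0.0944 at day 7 and 1.27 ± 0.0241 against 2.01 ± 0.0601 at day 10. The EtOH and 4-OHT libraries did not overlap on the later 3 days, where the ratio was 1.64, 1.62 and 1.58 times higher with 4-OHT. *Med13* was called higher and *Med13l* lower at days 5 and 7, and *Med13l* alone was called at day 10. In Wnt3-CM, where both genes fell, the ratio went from 1.76 ± 0.0735 to 2.07 ± 0.102, and in the D173A line from 1.96 ± 0.241 to 2.45 ± 0.0302. DKO organoids had 3.54 ± 0.368 and VillinCreERT2 organoids 2.25 ± 0.103.

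In the DKO line the *Cdk8* count per *Cdk19* count was lower after 4-OHT on the days when *Cdk19* was higher. It fell from 0.859 ± 0.0359 to 0.632 ± 0.0380 at day 3 and from 1.25 ± 0.0367 to 0.939 ± 0.0591 at day 7, without overlap, and from 1.15 ± 0.158 to 0.943 ± 0.0542 at day 5, with overlap. At day 10 it was 1.38 ± 0.0349 with EtOH and 1.45 ± 0.0541 with 4-OHT. In EtOH organoids it rose from day 3 to day 10 by a factor of 1.61, along with the rise of *Cdk8*. In the D173A line it rose after 4-OHT, from 2.27 ± 0.109 to 2.64 ± 0.108. Over both ratios and 14 comparisons, 28 exact two-sided permutation tests were run, in which 3 against 3 libraries cannot give a p under 0.1 and the smallest adjusted p was 0.156. No ratio could therefore pass an adjusted threshold of 0.05.

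**Figure D4:**
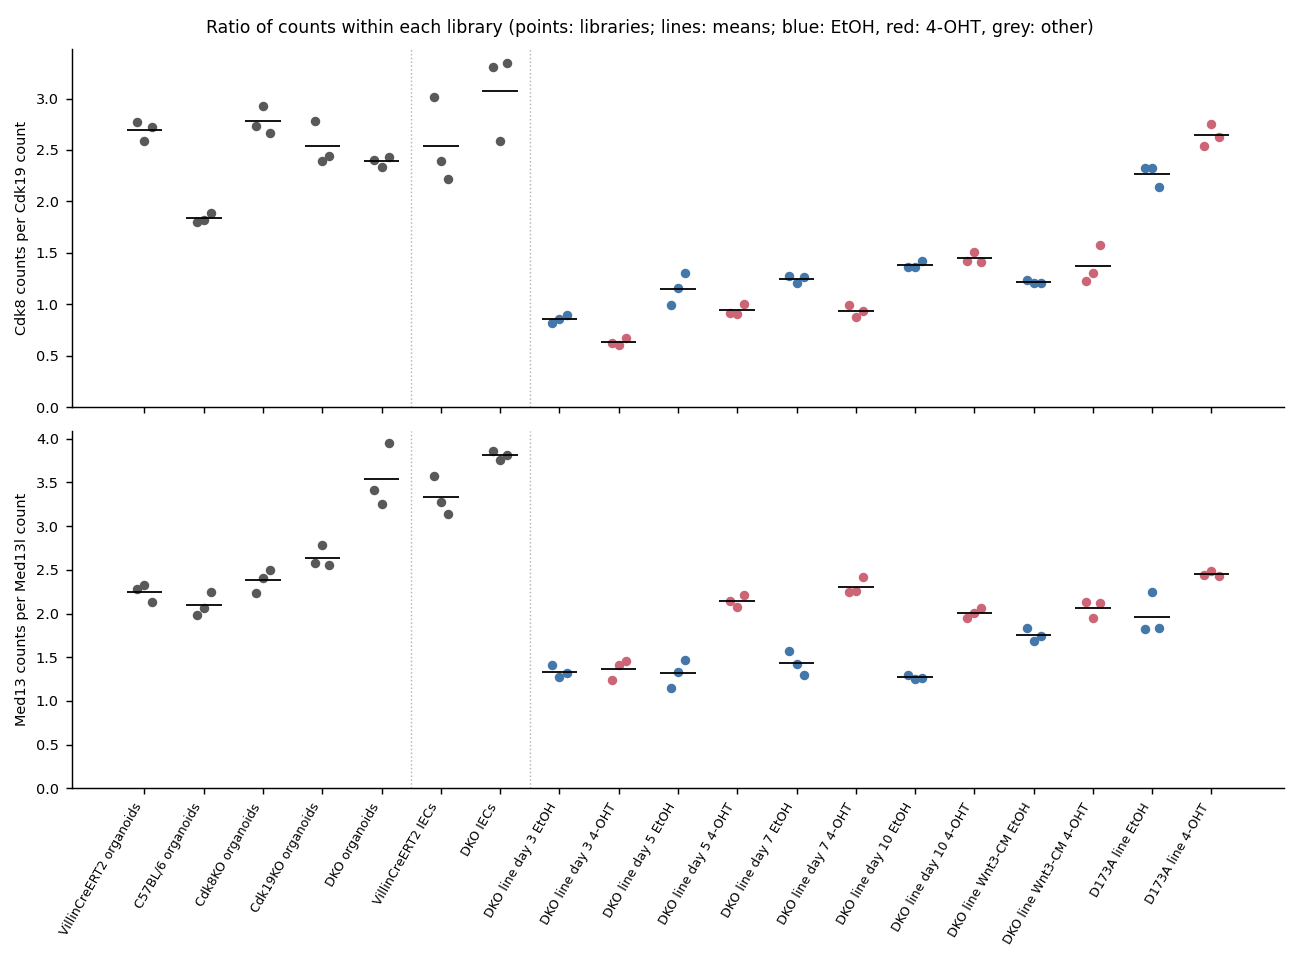
Ratio of counts within each library (y axes, from 0) of *Cdk8* per *Cdk19* and of *Med13* per *Med13l* in the groups named on the x axis. Points are libraries, lines group means, and colors mark EtOH (blue), 4-OHT (red) and groups outside the EtOH against 4-OHT pairs (grey). *Med13* per *Med13l* is 1.15 to 1.46 with EtOH and 2.07 to 2.21 with 4-OHT at day 5 of the DKO line.

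Core Mediator, to which the module binds, was set beside it as a list of 26 subunit genes, of which 25 were tested. After 4-OHT in the DKO line 1 core gene was higher and 2 lower at day 3, against 15.5% and 18.8% of all genes, 2 and 6 at day 5 (18.4% and 19.9%), 1 and 5 at day 7 (22.7% and 22.5%) and 8 and 7 at day 10 (23.1% and 21.2%). The median log2 fold change of the list was 0.03, −0.07, −0.11 and −0.02 on these days, against −0.02, 0.00, −0.01 and 0.02 over all genes tested. *Med14*, the scaffold subunit of Mediator, fell by 0.43 at day 5 (adjusted p = 1.03e-05), by 0.66 at day 7 (adjusted p = 2.63e-09) and by 0.74 at day 10 (adjusted p = 4.34e-10). *Med22* fell at day 3 (−0.36, adjusted p = 0.00108) and day 7 (−0.48, adjusted p = 3.05e-05), and *Med11* (0.47) and *Med28* (0.39) rose at day 10 (adjusted p = 1.25e-05 and 0.00102).

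In Wnt3-CM 3 core genes rose and 5 fell (all genes 24.3% and 23.9%), with *Med31* at −0.43, *Med17* at 0.34 and *Med28* at 0.27 (adjusted p = 0.0226, 0.000457 and 0.00622). The effect on *Med14* was higher in Wnt3-CM than in standard medium by 0.49 (adjusted p = 0.00125). Within the D173A line 0 of 25 core genes passed by edgeR, with 3 at an unadjusted p under 0.05 and values of −0.28 to 0.18 (all genes 14.2% higher and 13.7% lower), and the effects on *Med14* (0.58, adjusted p = 0.00326) and *Med24* (0.55, adjusted p = 0.000587) were higher there than in the DKO line at day 7. Between organoid lines, 0 core genes were higher and 8 lower in DKO against VillinCreERT2 (all genes 25.8% and 27.1%), with *Med14* at −0.73 and *Med22* at −0.60 (adjusted p = 3.89e-09 and 4.82e-08), 6 were lower against Cdk19KO (all genes 17%) and 12 against Cdk8KO (28.1%). *Med14* was also lower in the C57BL/6 line than in VillinCreERT2 organoids (−0.61, adjusted p = 5.74e-08), where 5 core genes were higher and 9 lower (all genes 31.2% and 30.1%). Cdk8KO had 4 higher (all genes 15.7%), Cdk19KO 1 higher (7.66%), and DKO IECs 0 in either direction by edgeR, with 4 at an unadjusted p under 0.05 and values of −0.49 to 0.43 (all genes 0.659% higher and 0.883% lower). From day 3 to day 10 in EtOH 13 core genes rose and 5 fell (all genes 33.5% and 33.7%), with *Med30* at 0.92 and *Med28* at 0.67 (adjusted p = 2.09e-07 and 6.37e-07).

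**Figure D5:**
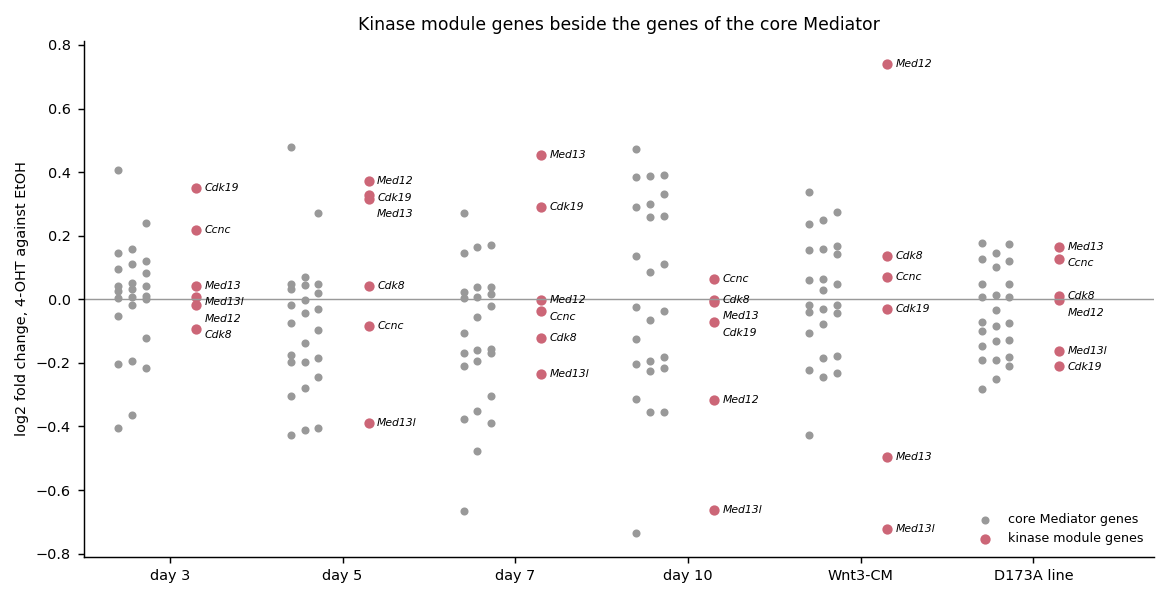
Log2 fold change of 4-OHT against EtOH (y axis) for the core Mediator genes (grey) and the kinase module genes (red) in the 6 comparisons within a line (x axis), each point a gene. *Med14* lies at −0.74 and *Med13l* at −0.66 at day 10, and in Wnt3-CM *Med12* at 0.74 lies above all core genes, the highest of which is *Med17* at 0.34.

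*Fbxw7*, a subunit of the ubiquitin ligase that is known to mark MED13 and MED13L for degradation, fell after 4-OHT at day 10 by 0.40 on the log2 scale (adjusted p = 0.00591) and in Wnt3-CM by 0.41 (adjusted p = 0.00224). At days 3, 5 and 7 and in the D173A line its values of 0.23, 0.02, 0.12 and −0.03 did not pass. It was also lower in DKO than in Cdk8KO organoids (−0.23, adjusted p = 0.0143) and in C57BL/6 than in VillinCreERT2 organoids (−0.32, adjusted p = 0.00102). It did not pass in DKO against VillinCreERT2 (−0.15) or Cdk19KO organoids (0.04), in Cdk8KO against VillinCreERT2 (0.07), in Cdk19KO against C57BL/6 (0.13) or in DKO IECs (−0.11). With EtOH it was higher at day 10 than at day 3 (0.43, adjusted p = 0.00168), and its effect at day 10 was below that at day 3 (−0.63, adjusted p = 0.00239).

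Over the 24 libraries of the time course, the genes whose log2 CPM followed *Cdk8* most closely, among 11597 genes averaging at least 50 counts, were *Dnajc3* (Pearson r = 0.973), *Xpo7* (0.969) and *Tram1* (0.962), against a median of 0.149 over all genes compared. For *Cdk19* they were *Cbr2* (0.913), *Rin2* (0.913) and *Phka2* (0.894), against a median of −0.118. Among the 15 pairs of members, r ran from −0.775 (*Ccnc* with *Med12*) to 0.751 (*Cdk8* with *Ccnc*). *Cdk8* correlated with *Cdk19* at −0.67 and with *Med12* at −0.727, *Cdk19* with *Med12* at 0.677 and with *Ccnc* at −0.423, and the 9 pairs with *Med13* or *Med13l* lay at −0.333 to 0.367. These values describe 8 groups of 1 line that share culture time and treatment, and the 24 points are not independent.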

How the data were processed

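Poly-A RNA of 57 libraries was sequenced as 100 bp paired-end reads. Per the labels and the submitters' processing notes, the authors aligned the reads with STAR (2.5.2) to mm10 and deposited raw read counts per gene, made with featureCounts (Subread 1.6.3), in 4 tables. The annotation release and the strand setting are not given in the sources used here. Gene identifiers were matched to GENCODE vM21 (53861 of 54752, and 7 of 7 members). A spreadsheet had turned some gene names of 1 table into dates, so names were taken from another table by identifier. Library columns were assigned to samples by name, Wnt3-CM columns only to their group by name, and the D173A line columns by elimination. Of the library columns, 6 could not be tied to a label and were not used, so 1 planned comparison, of IECs with the D173A allele, was not run.

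Counts were analysed per table in edgeR (4.0.16, R 4.3.3) with TMM normalization, filterByExpr (minimum count 10) and the quasi-likelihood test. P-values were adjusted by the method of Benjamini and Hochberg over all genes tested (13745 to 15636), and adjusted p-values under 0.05 were called. Every adjusted p in the text is from edgeR unless another tool is named. The 5 organoid lines were fitted together, as were the 24 time-course libraries, and effects in different tables were compared by an interaction term in a joint fit of their raw counts. Library totals (15485959 to 32909565 counts) bound the precision, and exact intervals on *Med12l* counts cover counting error only. Ratios within libraries were tested by an exact permutation test (scipy 1.17.1). Alternatives were no filter, a stricter filter, upper quartile normalization, DESeq2 (1.42.0), limma-voom (limma 3.58.1), a replicate block, only the groups compared, another control and each library left out. Same-numbered columns deviated together from their group means in the Wnt3-CM table (r = 0.14 to 0.27) and the D173A table (0.15 to 0.49), so their numbers, which come from the column names alone, were taken to pair libraries. The scripts were tested on simulated counts.

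The members, gene lists and tests were chosen with earlier results of these data known. Named genes were the 7 members, up to 3 genes per list with the largest change among those called, and the 3 genes most correlated with *Cdk8* or *Cdk19*. The lists were core Mediator, other transcriptional CDKs and cyclins, SWI/SNF subunits and *Fbxw7*.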

Additional observations from a re-analysis of the deposited data

Results flagged for a closer look

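The effect of 4-OHT against EtOH differed between conditions for 5 of the members' values, each by an interaction term in edgeR's quasi-likelihood fit. Between day 10 and day 3 of the DKO line, 2 of 6 members passed (all genes 23.7% higher, 21.4% lower). *Cdk19* differed by −0.42 on the log2 scale (adjusted p = 0.000419) and *Med13l* by −0.67 (adjusted p = 2.36e-05). Between Wnt3-CM and standard medium at day 10, 2 of 6 passed (14.1% and 14.9%). *Med12* differed by 1.05 (adjusted p = 2.87e-05) and *Med13* by −0.49 (adjusted p = 0.00774). Between the D173A line and the DKO line at day 7, 1 of 6 passed (9.73% and 10.4%), with *Cdk19* differing by −0.50 (adjusted p = 0.00284). The last 3 values set libraries of 2 tables against each other, and each group of a comparison holds 3 libraries. Single outlying libraries were not tested for, as every group holds 3.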

How the results depend on the processing

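Of 690 values of members under settings that keep every library, 667 stayed on their side of the test (16 with another sign, passing in neither fit), 7 lost a call, 13 gained one and 3 reversed. Of 726 values with 1 library left out, 685 stayed (52 with another sign), 28 lost a call, 13 gained one and 0 reversed. The 3 were against the average of both control lines, with *Med13l* in Cdk8KO at 0.011 (adjusted p = 0.931) and *Cdk8* and *Med13* in DKO organoids at 0.016 (0.840) and 0.19 (0.0117). For Cdk8KO against VillinCreERT2, 1 member called became 3 with no filter and 2 with upper quartile normalization, with only the groups compared and with the replicate block (where *Med12* passed, adjusted p = 0.0378). Upper quartile normalization left 1 of 2 calls in DKO against VillinCreERT2. Only the groups compared gave 2 at day 3. In the D173A line no filter, upper quartile normalization and the replicate block gave 1 each. With each library left out in turn, calls ran from 0 to 2 in Cdk8KO, 0 to 3 in Cdk19KO, 1 to 2 in DKO, 3 to 5 in C57BL/6, 1 to 2 at day 10, 0 to 2 in the D173A line and 1 to 2 in its difference from the DKO line. The D173A counts with no filter and with libraries left out include *Med12l* where it was tested. The causes were not tested. In the organoid line, IEC and time-course tables, deviations of same-numbered libraries correlated at −0.39 to 0.42, with both signs in each table, so numbers were not taken to pair those libraries. In Wnt3-CM and the D173A line the block changed no other call of a member. It called 7338 of 13745 genes in Wnt3-CM, against 3341 higher and 3289 lower without it. In the D173A line it called 5971 of 15457, against 2191 higher and 2112 lower. The shares of all genes and the list counts are from the fits without a block. The joint fits were run without a block. In IECs the genes called (100 higher and 134 lower) came to 1192 with DESeq2, 1367 with no filter and 8 with the replicate block. The planned IEC comparison with the D173A allele was not run. Depth limits *Med12l* in organoids.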

Other observations

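Other regulators of transcription were described by 2 further lists. Of 12 other transcriptional CDKs and cyclins, 1 rose and 1 fell after 4-OHT at day 3 of the DKO line, against 15.5% and 18.8% of all genes. At day 5, 4 rose and 3 fell (18.4% and 19.9%), at day 7, 0 rose and 2 fell (22.7% and 22.5%), and at day 10, 1 rose and 4 fell (23.1% and 21.2%). In Wnt3-CM 1 rose and 4 fell (24.3% and 23.9%), and 2 fell in the D173A line (13.7%). *Cdk12*, a kinase of the RNA polymerase II tail, rose at day 3 (0.31, edgeR adjusted p = 0.000608) and fell at day 10 (−0.39, adjusted p = 7.05e-05) and in Wnt3-CM (−0.50, adjusted p = 4.76e-05). *Ccnl2*, a cyclin linked to splicing, rose at day 5 (0.97, adjusted p = 1.29e-05) and in Wnt3-CM (0.50, adjusted p = 2.87e-05) and fell in the D173A line (−0.30, adjusted p = 0.00372).

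Of the SWI/SNF chromatin remodeling subunits, 27 were tested in the time course. At day 3, 3 rose and 4 fell, against 15.5% and 18.8% of all genes. At day 5, 0 rose and 12 fell (18.4% and 19.9%), and at day 7, 2 rose and 14 fell (22.7% and 22.5%). At day 10, 2 rose and 15 fell (23.1% and 21.2%). The median log2 fold change of the list was 0.04, −0.17, −0.21 and −0.31, against −0.02, 0.00, −0.01 and 0.02 over all genes. *Smarcc1*, a core subunit, fell at day 5 (−0.48), day 7 (−0.55) and day 10 (−0.69), with adjusted p of 3.39e-06, 1.58e-07 and 3.10e-09. The effect on *Smarcc1* was higher in Wnt3-CM than in standard medium at day 10 by 0.64 (adjusted p = 2.94e-05). *Arid1a*, a large DNA-binding subunit, fell at day 10 (−0.62, adjusted p = 2.64e-08) and in Wnt3-CM (−0.62, adjusted p = 6.28e-07), where 2 of 26 rose and 12 fell (all genes 24.3% and 23.9%). The D173A line had 3 lower subunits of 26 (all genes 13.7%), among them *Bcl7a* (−0.63, adjusted p = 0.000637). In DKO against VillinCreERT2 organoids 2 of 26 were higher and 14 lower (all genes 25.8% and 27.1%), 0 and 8 against Cdk19KO (17.5% and 17%) and 1 and 17 against Cdk8KO (26.6% and 28.1%). Between the control lines, C57BL/6 against VillinCreERT2, 6 were higher and 10 lower (31.2% and 30.1%), Cdk8KO against VillinCreERT2 had 6 higher and 0 lower (15.7% and 14.6%), and Cdk19KO against C57BL/6 had 0 higher and 2 lower (7.66% and 7.8%). In IECs 0 of 26 passed by edgeR, with 3 at an unadjusted p under 0.05 (all genes 0.659% and 0.883%).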
